A study of Homo sapiens with 9 samples.

Results

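The oligosaccharyltransferase (OST) is the enzyme of the endoplasmic reticulum that N-glycosylates secreted and membrane proteins. Its subunits were followed by ribosome profiling, in which the mRNA fragments covered by ribosomes are sequenced, in Huh-7, a cell line from a human hepatocellular carcinoma. The 10 genes considered are DAD1, DDOST, RPN1, RPN2, STT3A, STT3B, OSTC, MAGT1, KRTCAP2 and TUSC3, chosen as subunits of the complex. TUSC3 is not analysed here, and the other 9 had a value for both compounds, among 8775 transcripts with values for both and 9221 with a value for either. The group was selected on the log2 ratios of DAD1 to vehicle, known to be low with both compounds, so all values with compound are given as a description, with no test.

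Cells were treated for 1 hr with 1.5 μM PF8503 (PF-06378503), with 1.5 μM PF846 or with 0.5% DMSO as vehicle, in 3 biological replicates each, which gave 9 libraries. The labels spell the full name of PF846 in more than 1 way, as PF-067446846 and PF-06744846. The compounds belong to a class of small molecules that stall ribosomes on selected nascent chains. Dose and time were the same, so the comparison addresses which subunits have fewer ribosome footprints in the counted region with either compound. The amount of mRNA was not measured in these libraries, and its part in the counts cannot be told apart. All libraries come from a single transformed line in which no gene was altered. The labels put each condition in sequencing lanes of its own, and effects of lane and of condition cannot be told apart.

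Human cells have a pair of catalytic subunits, each in a complex of its own. STT3A sits in the complex that is bound to the protein translocation channel and acts while the nascent chain enters the endoplasmic reticulum, and it is joined there by OSTC and KRTCAP2. STT3B acts later, on sites that STT3A has passed over, and its complex holds MAGT1 or TUSC3, oxidoreductases that handle cysteines close to glycosylation sites. Both complexes share the ribophorins RPN1 and RPN2, DDOST, DAD1, OST4 and TMEM258. DAD1, the defender against cell death, is a small membrane protein that the assembled complex requires.

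The beginning of each coding sequence is shown, since the region counted for DAD1 left out more of this end for PF846 than for PF8503, while the same reads were counted for both compounds in the other subunits. The sequences are the first 40 codons of the canonical transcripts in GENCODE version 44 (GRCh38), and capitals mark codons with T as their second base, all of which encode the hydrophobic residues phenylalanine, leucine, isoleucine, methionine or valine. The authors used an earlier release, so their transcripts may differ.
DAD1: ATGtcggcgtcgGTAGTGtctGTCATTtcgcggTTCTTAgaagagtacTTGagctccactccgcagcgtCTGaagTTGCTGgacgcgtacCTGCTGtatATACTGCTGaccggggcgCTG
RPN1: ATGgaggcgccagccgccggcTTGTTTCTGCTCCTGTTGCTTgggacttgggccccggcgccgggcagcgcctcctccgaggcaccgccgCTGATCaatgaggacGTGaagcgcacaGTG
RPN2: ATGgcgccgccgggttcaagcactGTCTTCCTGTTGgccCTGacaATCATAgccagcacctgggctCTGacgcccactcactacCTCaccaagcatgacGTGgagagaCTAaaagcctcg
DDOST: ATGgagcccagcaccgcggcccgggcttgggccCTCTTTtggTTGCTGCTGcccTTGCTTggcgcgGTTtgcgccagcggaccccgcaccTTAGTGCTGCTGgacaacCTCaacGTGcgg
STT3A: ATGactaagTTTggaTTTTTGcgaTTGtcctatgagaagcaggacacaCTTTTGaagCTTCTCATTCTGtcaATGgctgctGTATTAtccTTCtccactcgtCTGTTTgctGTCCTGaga
OSTC: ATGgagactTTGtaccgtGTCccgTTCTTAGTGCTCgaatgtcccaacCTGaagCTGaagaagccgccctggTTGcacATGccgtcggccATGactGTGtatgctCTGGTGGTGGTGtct
KRTCAP2: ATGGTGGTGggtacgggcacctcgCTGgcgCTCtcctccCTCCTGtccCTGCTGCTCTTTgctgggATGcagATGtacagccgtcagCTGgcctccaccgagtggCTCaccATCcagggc
STT3B: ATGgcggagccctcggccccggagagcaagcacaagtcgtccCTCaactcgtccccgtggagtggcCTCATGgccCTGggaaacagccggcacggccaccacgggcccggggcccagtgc
MAGT1: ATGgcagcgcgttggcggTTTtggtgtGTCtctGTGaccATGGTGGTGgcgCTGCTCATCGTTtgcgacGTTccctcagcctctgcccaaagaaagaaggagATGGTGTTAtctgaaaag

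On the reverse strand lie DAD1 at chr14:22589038-22589157, DDOST at chr1:20661231-20661350 and RPN1 at chr3:128650681-128650800, each within a single coding exon. Also on the reverse strand, MAGT1 spans chrX:77875580-77895410 and KRTCAP2 spans chr1:155172777-155173224, each over 2 exons with an intron between. On the forward strand, STT3B at chr3:31532999-31533118 and OSTC at chr4:108650656-108650775 lie in 1 exon, whereas RPN2 over chr20:37179357-37184286 and STT3A over chr11:125595916-125597090 take up 2. The DAD1 gene (ENSG00000129562) occupies chr14:22564907-22589224, and its 113 codons fall in 2 coding exons.

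In DAD1, 17 of the 40 codons had T at the second base, which is 42.5%, and OSTC had the same share. The highest share among the subunits was 47.5% in STT3A, and the lowest was 12.5% in STT3B. Across 8713 transcripts of the deposited tables the median was 27.5%, and the central 95% lay between 7.5% and 45.0%. All subunits but STT3B were above this median.

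DAD1 was the subunit whose counts were low with both compounds. Single libraries could be told apart in the deposited means (their whole read counts are recovered as described below), and they are numbered 1 to 3 within a condition by increasing depth, which is not the replicate number of the labels. The reads counted per library came to between 4997445 and 15410889 over the transcripts whose whole counts were recovered. The most abundant transcripts, such as AFP and ALB, are not among these. All normalized counts below are reads divided by the authors' size factors, and they cannot be set against each other between the tables of the compounds without rescaling, because the size factors of the same vehicle libraries differ between them by a constant 1.09.

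In the PF8503 table, vehicle libraries 1, 2 and 3 held 1006, 1504 and 1951 reads of DAD1, or 1270.5, 1406.1 and 1509.5 normalized counts. The PF8503 libraries held 277, 632 and 802 reads, or 400.3, 594.1 and 646.9 normalized counts. All PF8503 libraries lay below all vehicle libraries. The mean fell from 1395 ± 120 to 547 ± 130 normalized counts (SD, n = 3 each), a log2 ratio of -1.35 (SE 0.23), which left 39.2% of the vehicle mean. Within the PF8503 group, library 1, the shallowest, was the lowest, and the log2 ratio without it was -1.17. DAD1 held rank 9 from the lowest among 9157 log2 ratios.

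In the PF846 table, the vehicle libraries held 777, 1162 and 1500 reads of DAD1, or 898.9, 993.6 and 1062.2 normalized counts. The PF846 libraries held 292, 466 and 1168 reads, or 522.6, 642.0 and 668.8 normalized counts. Again no library with compound reached the level of a vehicle library. The mean fell from 985 ± 82 to 611 ± 78 normalized counts (SD, n = 3 each), a log2 ratio of -0.69 (SE 0.13), which left 62.0% of the vehicle mean. With PF846, DAD1 held rank 24 from the lowest among 8839 log2 ratios.

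**Figure D1:**
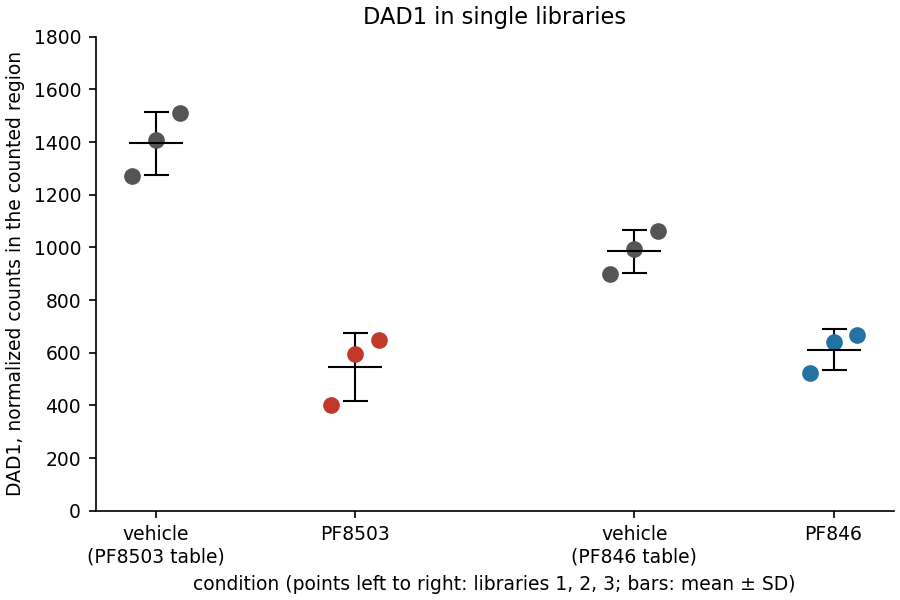
Normalized counts of DAD1 in the counted region (vertical axis) for the vehicle and compound libraries of each table, with points for the 3 libraries and bars for the mean ± SD. The PF8503 libraries lie between 400.3 and 646.9 and the PF846 libraries between 522.6 and 668.8, all below the vehicle libraries of the same table.

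The region counted for DAD1 was not the same for both compounds. The authors counted reads 3′ of the codon at which the profiles with compound and vehicle diverged most, where that divergence passed their threshold, and otherwise from 10 codons after the start. The choice was made from the same libraries. Since the regions differed, the counts of DAD1 describe the stretch after the position of largest divergence for at least 1 compound. Whether this holds for both compounds was not derived here. In vehicle library 1 the PF8503 region held 229 reads more than the PF846 region, which is 22.8% of its reads. The figures were 342 reads and 22.7% in library 2, and 451 reads and 23.1% in library 3. The larger region of the PF8503 table, which by the stated procedure starts closer to the start codon, thus held 1022 further reads over the vehicle libraries, or 22.9%. The log2 ratios of DAD1 with PF8503 and PF846, -1.35 and -0.69, therefore cover different stretches, and the difference between the compounds in this gene is given side by side only.

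DAD1 was the single subunit of 9 with a log2 ratio of -0.5 or lower with PF8503, where 1.08% of all transcripts were that low. The same held with PF846, where 0.396% of transcripts were that low. No subunit had a ratio of 0.5 or higher, against 0.24% of all transcripts with PF8503 and 0.0792% with PF846. In DAD1 alone, all libraries with compound were below all vehicle libraries, a separation seen in 3.98% of transcripts with PF8503 and 2.8% with PF846. The rule had used these contrasts, so the shares are a description. DAD1 was counted over a region that differed between the compounds. In the other 8 subunits, and in 98.5% of transcripts with vehicle counts for both, the vehicle reads counted were identical. The ranks of DAD1 and these shares thus set unlike regions side by side. Among the other 8 subunits, the log2 ratios ran from -0.11 to 0.33 with PF8503 (median 0.035) and from -0.054 to 0.069 with PF846 (median -0.017). For comparison, 95% of all transcripts had log2 ratios from -0.32 to 0.28 with PF8503 and from -0.23 to 0.22 with PF846.

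The other subunits shared by both complexes had log2 ratios near 0. RPN1, ribophorin I, a membrane protein with a large luminal domain, had 5471, 5660 and 5548 normalized counts in the vehicle libraries and 5739, 5909 and 6054 in the PF8503 libraries. All PF8503 libraries of RPN1 lay above all vehicle libraries, although the log2 ratio was only 0.086 (SE 0.026). With PF846 the groups overlapped, at a log2 ratio of -0.0094 (SE 0.020). RPN2, ribophorin II, had 12601, 12724 and 13925 normalized counts with vehicle and 12220, 12335 and 14450 with PF8503, groups that overlapped. Its log2 ratio was -0.0090 (SE 0.091) with PF8503 and -0.029 (SE 0.099) with PF846. The vehicle and compound libraries of DDOST, a further shared subunit, overlapped in the same way, with a log2 ratio of 0.037 (SE 0.097) with PF8503 and -0.025 (SE 0.098) with PF846.

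Both catalytic subunits had log2 ratios near 0 with either compound. STT3A had 7673, 7595 and 7793 normalized counts with vehicle and 8004, 7900 and 7694 with PF8503. STT3B had 9934, 9636 and 9750 with vehicle and 10134, 9824 and 9477 with PF8503. The vehicle and PF8503 libraries overlapped in both genes, with log2 ratios of 0.033 (SE 0.020) for STT3A and 0.0057 (SE 0.031) for STT3B. With PF846 the ratios were 0.0045 (SE 0.025) for STT3A and 0.021 (SE 0.014) for STT3B.

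Of the subunits that attach to STT3A, OSTC had 1206, 1362 and 1341 normalized counts with vehicle and 1140, 1223 and 1266 with PF8503. The PF8503 libraries reached into the range of vehicle, and the log2 ratio was -0.11 (SE 0.071), the lowest after DAD1. With PF846 it was -0.054 (SE 0.073). KRTCAP2, which with OSTC links the STT3A complex to the translocation channel, had 253.8, 276.7 and 301.0 normalized counts with vehicle and 261.6, 361.9 and 419.4 with PF8503. PF8503 libraries 2 and 3 of KRTCAP2 were above all vehicle libraries, and library 1 was within their range, so that the log2 ratio of 0.33 had an SE of 0.21. Without PF8503 library 1 it was 0.50 and without library 3 it was 0.17. With PF846, KRTCAP2 stood at 268.5, 252.1 and 277.7 normalized counts against 232.5, 253.1 and 275.5 with vehicle, and its log2 ratio was 0.069 (SE 0.082).

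MAGT1, the oxidoreductase of the STT3B complex, had 544.3, 589.9 and 578.7 normalized counts with vehicle and 702.4, 595.9 and 654.1 with PF8503. All PF8503 libraries of MAGT1 were above all vehicle libraries and the log2 ratio was 0.19 (SE 0.077). RPN1 and MAGT1 were thus 2 of 9 subunits that lay wholly above vehicle with PF8503, where 2.97% of all transcripts did so. With PF846 no subunit lay wholly above vehicle (2.29% of all transcripts did), and MAGT1 had a log2 ratio of -0.041 (SE 0.043).

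**Figure D2:**
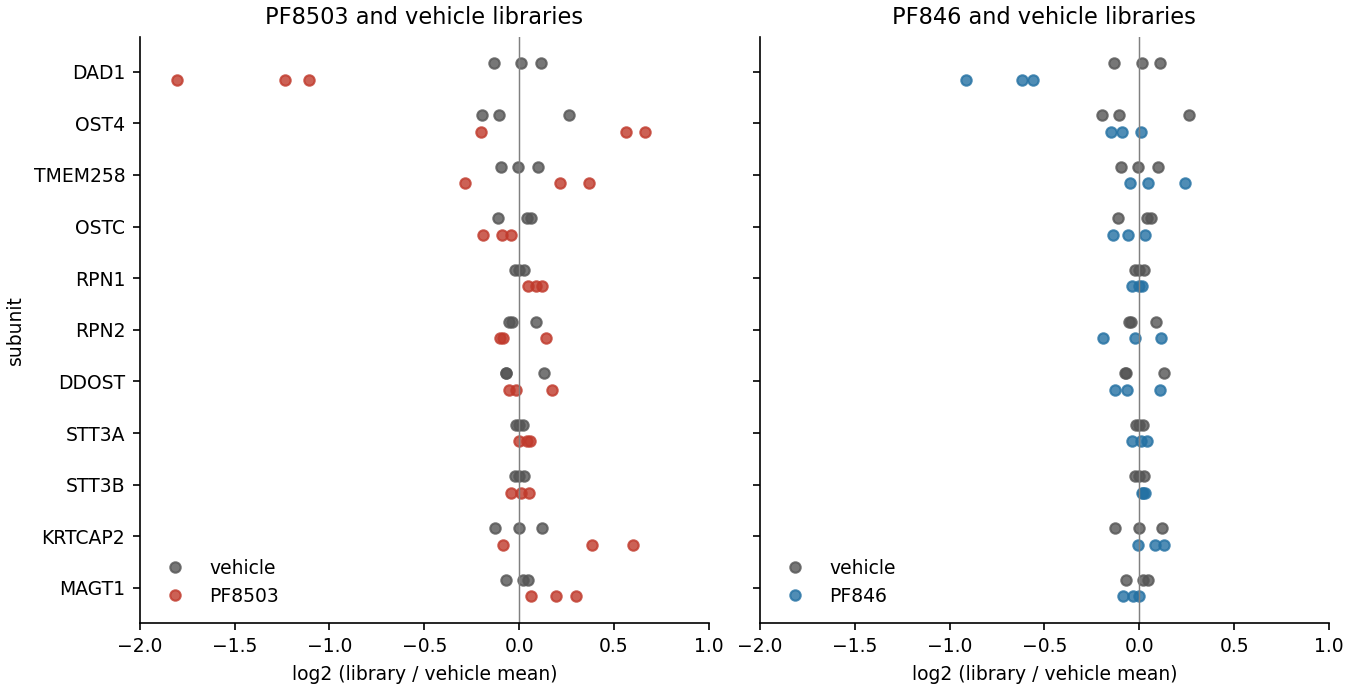
Each library of vehicle, PF8503 (left) and PF846 (right) for 11 subunits, as log2 of its normalized count over the vehicle mean of the same table. DAD1 is the subunit whose compound libraries lie apart from vehicle with both compounds, at log2 ratios of -1.35 and -0.69, while the PF8503 libraries spread most in OST4, DAD1, KRTCAP2 and TMEM258 (SD of 0.34 to 0.47 on the log2 scale).

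OST4 and TMEM258, small subunits common to both complexes that were not among the 10 genes, were examined to cover the rest of the complex. OST4 had 325.8, 420.7 and 306.4 normalized counts with vehicle and 305.0, 517.9 and 554.9 with PF8503, with groups that overlapped and a log2 ratio of 0.39 (SE 0.31). TMEM258 had 2060, 2361 and 2190 with vehicle and 1805, 2556 and 2849 with PF8503, a log2 ratio of 0.13 (SE 0.21). With PF846 the ratios were -0.075 (SE 0.15) for OST4 and 0.085 (SE 0.10) for TMEM258. In these subunits, as in DAD1 and KRTCAP2, PF8503 library 1 was the lowest of its group. This was so for 8 of 11 subunits, the longer DDOST, RPN1 and RPN2 among them. Vehicle library 1 was the lowest of its own group in 7 of 11. The shares over all transcripts were not derived, so these counts are a description only. Across 476 transcripts of 150 codons or fewer with the same counted region, the median log2 ratio of PF8503 libraries 1, 2 and 3 to the vehicle mean was -0.082, 0.13 and -0.040, against 0.0050, -0.0054 and 0.00054 for 7669 longer ones. The short transcripts also moved in the vehicle libraries, at 0.012, 0.088 and -0.10, and over 480 such transcripts in the PF846 libraries, at 0.063, -0.024 and -0.046. The part of coding length in the values of the small subunits was not tested.

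The compounds were set against each other only where the counted region was the same, with identical vehicle reads in both tables. This held in 8 of the 9 subunits, and also in OST4 and TMEM258. The log2 ratio with PF8503 minus that with PF846 was 0.26 in KRTCAP2 (SE 0.21 from the compound libraries) and 0.23 in MAGT1 (SE 0.073). It was 0.095 in RPN1 (SE 0.027). OST4 had the largest of these differences, 0.46 (SE 0.28), and TMEM258 had 0.040 (SE 0.22). In the rest of the 8 the difference was smaller than 0.1 in either direction. The values were 0.062 in DDOST (SE 0.10), 0.029 in STT3A (SE 0.028), 0.020 in RPN2 (SE 0.12), -0.016 in STT3B (SE 0.028) and -0.053 in OSTC (SE 0.065). Each SE comes from 3 libraries per compound, so the SEs are themselves imprecise. None of these differences was tested, since the contrasts entered the choice of genes and share the vehicle libraries.

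**Figure D3:**
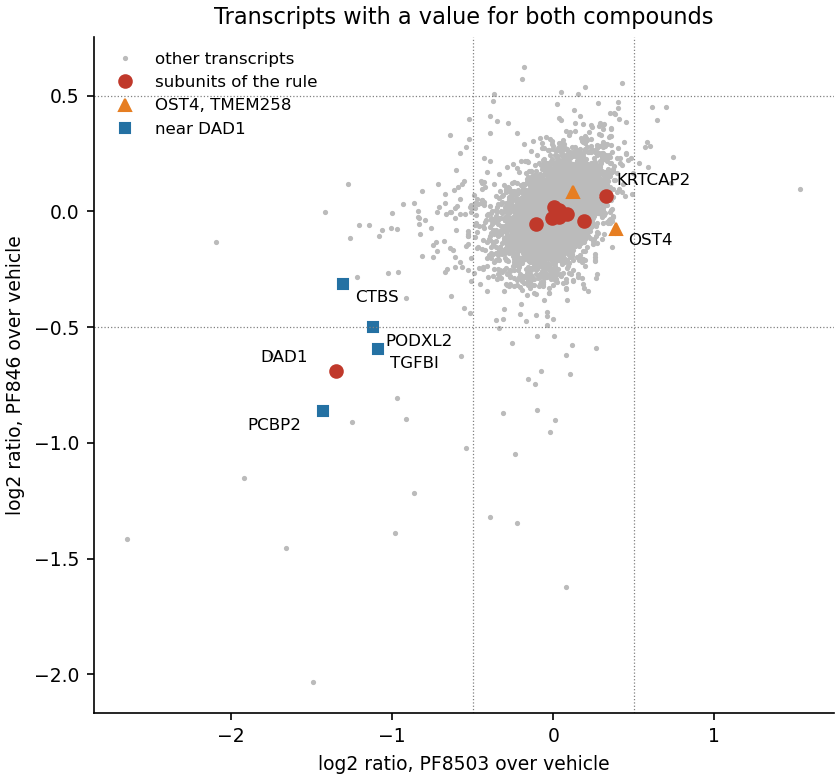
Log2 ratio over vehicle with PF8503 (horizontal) and with PF846 (vertical) for the 8775 transcripts with values for both, with dotted lines at -0.5 and 0.5. DAD1 lies at -1.35 and -0.69 while the other 8 subunits lie within the main cloud, between -0.11 and 0.33 with PF8503.

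Both log2 ratios at or below those of DAD1 were found in 6 transcripts, DAD1 included, of the 8775, and both at -0.5 or lower in 16. Among the transcripts whose pair of log2 ratios was nearest to that of DAD1 (Euclidean distance over 2 comparisons) were PCBP2, TGFBI, PODXL2 and CTBS. PCBP2, a poly(C)-binding protein, stood at -1.43 (SE 0.088) with PF8503 and -0.86 (SE 0.038) with PF846, at a distance of 0.19. TGFBI, a secreted matrix protein, lay at 0.28, PODXL2, a sialomucin of the cell surface, at 0.30, and CTBS, a lysosomal glycosidase, at 0.38. The counted region was the same for both compounds in PCBP2 and TGFBI, and differed in PODXL2 and CTBS. CTBS, with -1.31 (SE 0.26) and -0.31 (SE 0.11), had the widest gap between the compounds among these 4.

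Without compound, the density of ribosomes on the subunit mRNAs, in normalized counts per counted codon of the vehicle libraries, differed widely between subunits. It was 37.3 ± 2.6 for TMEM258, 21.4 ± 1.2 for RPN2, 20.6 ± 3.6 for OST4 and 16.6 ± 1.4 for DDOST (SD, n = 3). The libraries of RPN2 and OST4 overlapped, as did those of OST4 and DDOST. OST4 rests on 17 counted codons, and over its whole coding sequence the density was 9.49, so its place in the order is not fixed.

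STT3B had 12.1 ± 0.19 normalized counts per codon and STT3A 11.2 ± 0.15 (SD, n = 3), with a ratio of STT3B to STT3A of 1.10, 1.08 and 1.06 in vehicle libraries 1, 2 and 3. The libraries of the catalytic subunits did not overlap. Their sum was 23.5, 23.0 and 23.5 in the vehicle libraries, above RPN2 in each (20.6, 20.8 and 22.8). OSTC followed at 10.1 ± 0.66 and RPN1 at 9.47 ± 0.16. Their ranges overlapped, although OSTC was above RPN1 within each vehicle library. Over the whole coding sequence the densities were 8.75 for OSTC and 9.16 for RPN1, so their order is not fixed. For DAD1 the number of counted codons was not derived here. Its reads over all 113 codons set a lower bound of 12.3 ± 1.1. This bound overlapped the libraries of STT3B. Since fewer than 113 codons were counted, the density of DAD1 itself was higher, and its place against STT3B is not settled here.

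KRTCAP2 and MAGT1 were the lowest, with 2.39 ± 0.20 and 1.81 ± 0.076 normalized counts per codon (SD, n = 3), and they did not overlap. The density of KRTCAP2 was 0.213 ± 0.016 of that of STT3A, and the density of MAGT1 was 0.15 ± 0.0085 of that of STT3B. RPN2 exceeded MAGT1 by a factor of 11.8 ± 0.65. Densities count footprints over all copies of an mRNA in the counted stretch, not ribosomes per mRNA and not protein. The amount of mRNA was not measured.

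**Figure D4:**
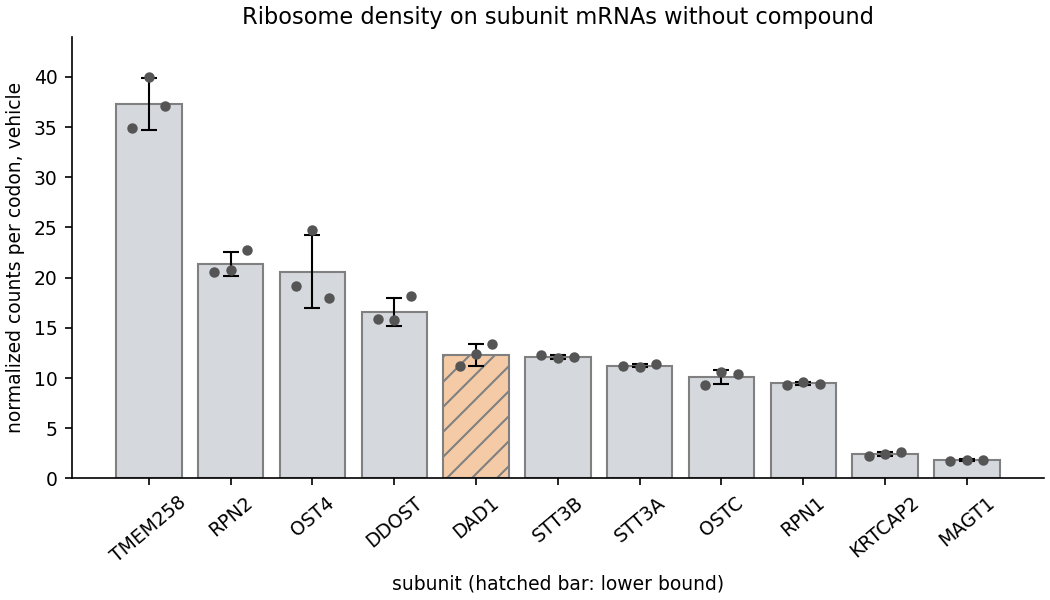
Ribosome density in the vehicle libraries for 11 subunits, in normalized counts per codon, with bars for the mean, error bars for the SD and points for the 3 libraries, and with the hatched bar of DAD1 as a lower bound. The subunits fall from 37.3 in TMEM258 to 1.81 in MAGT1, and KRTCAP2 and MAGT1 lie below all others.

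The genes that build the dolichol-linked oligosaccharide, the glycan that the complex transfers, showed no fall of the size seen in DAD1. With PF8503, 22 of 24 had a value, none was at -0.5 or lower (1.08% of all transcripts were) and 1 was at 0.5 or higher (0.24% were), and their median log2 ratio was 0.051 beside 0.013 over all transcripts. That gene was DPM3, which tethers dolichol-phosphate mannose synthase to the membrane, with 272.8, 289.8 and 384.5 normalized counts with vehicle and 453.8, 441.8 and 677.5 with PF8503. All PF8503 libraries of DPM3 were above all vehicle libraries (log2 ratio 0.73, SE 0.25), as in 2 of the 22 genes and 2.97% of all transcripts, while with PF846 it stood at 0.12 (SE 0.24). The lowest were ALG1, a mannosyltransferase, at -0.17 with PF8503, and ALG14, part of an N-acetylglucosaminyltransferase, at -0.24 with PF846, where DPAGT1, which begins the pathway, was highest at 0.14. The median with PF846 was -0.0024, and no gene was past 0.5.

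Among genes of glycan trimming and lectin-assisted folding, 16 of 17 had a value and none was past 0.5 with either compound. Their log2 ratios ran from -0.18 (EDEM2) to 0.14 (MOGS, glucosidase I) with PF8503 and from -0.12 (EDEM1) to 0.10 (MOGS) with PF846, and the medians were 0.024 and -0.00079. The EDEM proteins take part in disposal of misfolded glycoproteins.

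The list of the translocon and signal peptide machinery, through which OST substrates enter, held 2 genes at -0.5 or lower with PF8503 out of 29 with a value (1.08% of all transcripts), and 0 with PF846 (0.396%). SEC63, a translocon cochaperone, had 1219, 1073 and 952 normalized counts with vehicle and 598.3, 674.9 and 539.6 with PF8503, a log2 ratio of -0.84 (SE 0.14). SSR4, a subunit of the translocon-associated protein complex that neighbours OST, had 2800, 2867 and 3045 with vehicle and 1373, 1616 and 1972 with PF8503, a log2 ratio of -0.81 (SE 0.16). In both genes all PF8503 libraries were below all vehicle libraries, as in 3 of the 29 genes and 3.98% of all transcripts. With PF846, SEC63 stood at 0.0027 (SE 0.12) and SSR4 at -0.19 (SE 0.094), the lowest of the list, but their counted regions differed between the tables. The highest were TMEM147 at 0.16 with PF8503 and SEC61A2 at 0.099 with PF846, and the medians were -0.028 and -0.019.

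SEC61A1, the pore of the translocation channel, lies outside the rule for named genes and was picked after its values were seen. Its PF8503 libraries, at 4748, 4619 and 4922 normalized counts, were all below vehicle at 5904, 5842 and 5936 (log2 ratio -0.31, SE 0.027), and its PF846 libraries were all below vehicle as well, at a log2 ratio of -0.070 (SE 0.019). The counted region was the same.

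**Figure D5:**
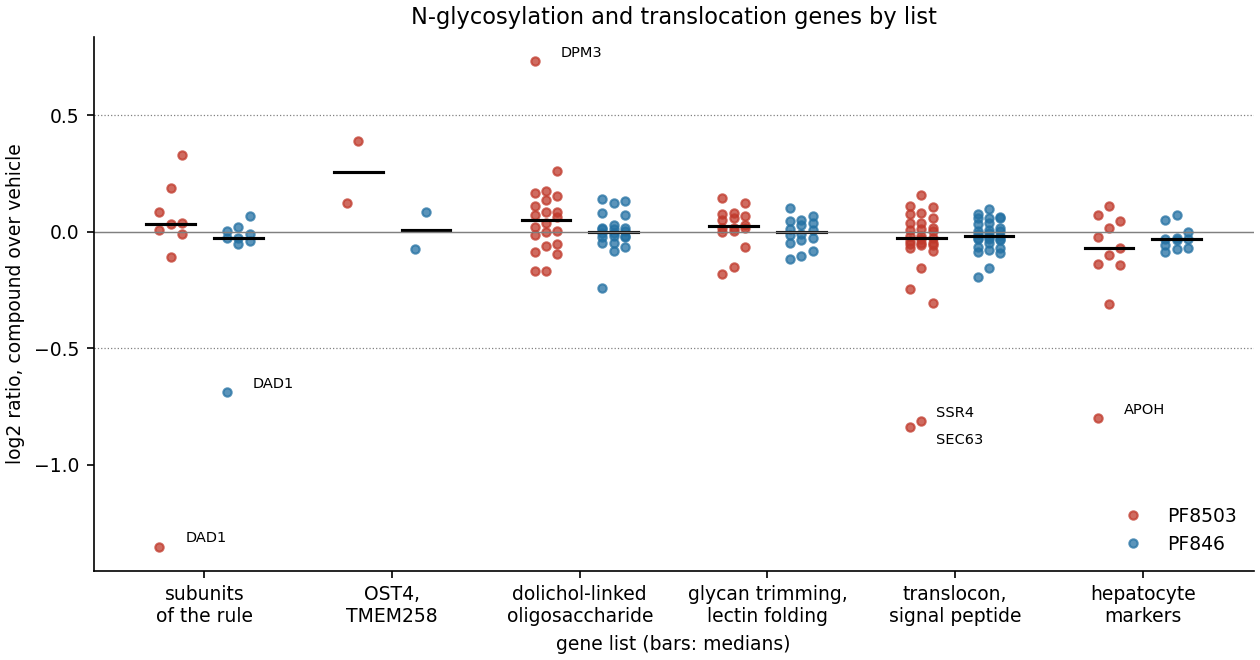
Log2 ratio over vehicle for each gene of the lists, with PF8503 in red, PF846 in blue, bars at the medians and dotted lines at -0.5 and 0.5. Genes past 0.5 are named, with DAD1 the lowest of all lists at -1.35 with PF8503 and the only one past -0.5 with PF846.

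The labelled cell line was checked against hepatocyte markers, all 11 of which had a value. AFP and ALB held ranks 1 and 2 of vehicle signal in the PF8503 table, and the lowest of the 11, APOH, was still above 80.7% of transcripts. The medians of the marker list were -0.070 with PF8503 and -0.030 with PF846. APOH was the marker past 0.5, at a log2 ratio of -0.80 (SE 0.14) with PF8503, and TTR was highest at 0.11. With PF846 the range was -0.089 (AFP) to 0.073 (APOB), and APOH stood at -0.037 (SE 0.13). The counted region of APOH differed between the tables, and its place as the lowest marker rests on the region counted for PF8503. Markers of blood cells and fibroblasts are not analysed here.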

How the data were processed

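Ribosome-protected fragments were measured in 9 libraries of Huh-7 cells (PF8503, PF846 and vehicle). The authors clipped adapters (FASTX toolkit), discarded reads of ribosomal RNA, aligned with Bowtie to canonical coding transcripts (GENCODE version 24, GRCh38), kept reads with 1 position and assigned them to codons by fragment length. Reads were summed 3′ of the codon of largest divergence or from 10 codons after the start, without the last 10 codons, and transcripts with over 30 counts were kept. The deposited signal of a transcript in a condition is the mean over its libraries of the read count, after the authors divided it by the size factor that DESeq gave the library. Versions of Bowtie and DESeq are not given in the sources used here. The tables also hold the authors' own fold changes, log2 values, p-values and adjusted p-values, which were not used.

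Each mean is printed to 15 digits and is a sum of 3 whole read counts, each divided by a constant of its library. These constants were found by lattice reduction from the 40 lowest means of a column, and the whole counts followed for 9124 of 9157 transcripts (99.6%) with PF8503 and 8832 of 8839 (99.9%) with PF846. Of several possible sets of constants, the one that its own counts gave back as size factors (median of ratios) was taken, to within 0.00027 on the log2 scale. The lowest count in a library was 30. Over the 8766 transcripts with vehicle counts in both tables, all vehicle counts were identical in 98.5%, and otherwise one table held the larger counts in every library. On simulated means 99.5% of 3969 (PF8503) and 99.6% of 3939 transcripts (PF846) were recovered and 0 were wrong. The recovered libraries carry no replicate number. No count model was fitted, since the members were chosen with these contrasts known.

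Log2 ratios compare the compound mean with the vehicle mean, with no pseudocount. SE and SD come from 3 libraries per condition and measure their spread, and counting error is part of it. Alternatives were other scaling, pseudocounts of 1 and 10, thresholds of 0.25 and 1, a minimum mean of 100, leaving out libraries and, added after the data were seen, leaving out library 3 of each condition. Densities divide by coding codons of GENCODE version 44 less 20, an assumed number of counted codons, and RefSeq protein lengths were not used here. For DAD1 all coding codons were used. Of the symbols in the tables, 94.5% were matched. The counted region was called the same where vehicle counts were identical, and 8 of 9 subunits also met a tolerance of 0.002 (log2) around the constant ratio of vehicle means.

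The members and gene lists were chosen with earlier results of these data known. Named were the members, the genes past 0.5 and the highest and lowest of each other list, and the 5 transcripts nearest to DAD1, of which 1 is not reported here. The work was done with numpy 2.4.6, pandas 2.3.3 and matplotlib 3.10.9 in Python 3.11.15.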

Additional observations from a re-analysis of the deposited data

How the results depend on the processing

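Of 224 comparisons of a value with its alternative, 217 stayed within the spread of the libraries or within 1.5 times of a count, and 0 reversed a ratio past 0.5. Leaving out single libraries gave DAD1 log2 ratios from -1.49 to -1.17 with PF8503 and from -0.76 to -0.59 with PF846. Without library 3 of vehicle and compound, chosen after seeing the data because the deviations of these libraries went together (r = 0.649 between vehicle and PF8503 and 0.619 between vehicle and PF846, across transcripts), STT3A with PF8503 was at 0.059. At a threshold of 1, 0 subunits were past it with PF846, and 24 transcripts were with PF8503 and 11 with PF846. At 0.25, 2 subunits were past it with PF8503 (DAD1 and KRTCAP2), and 734 transcripts were with PF8503 and 335 with PF846. No paired analysis was possible because the recovered libraries carry no replicate number. As a hint from the data only, deviations of vehicle libraries 1 and 2 went most with those of PF8503 libraries 1 and 2 (r = 0.449 and 0.476) and of PF846 libraries 2 and 1 (r = 0.424 and 0.362). The number of libraries per condition (3) limits the precision, most in OST4 and in the PF8503 values of DAD1, KRTCAP2 and TMEM258.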
